A study of Mus musculus with 12 samples.

Results

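The genes described here are those of the calcium-activated phosphatase calcineurin and of the transcription factors it switches on: the catalytic subunits Ppp3ca and Ppp3cb, the regulatory subunit Ppp3r1, and the 4 calcium-responsive NFAT factors Nfatc1, Nfatc2, Nfatc3 and Nfatc4. They were found by name on a 1-colour Agilent mouse array, taking every spot that was not a control and whose gene name in the scanner file was one of the 7. This gave 19 probes of 41174 on the array. Of the 19, 17 were bright enough to be tested, among 28607 tested probes in all.

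Calcineurin is a serine-threonine phosphatase made of a catalytic and a regulatory subunit, and it is activated by calcium and calmodulin. It removes phosphates from NFAT proteins in the cytoplasm, which lets them enter the nucleus and bind DNA together with partners such as AP-1 and MEF2 factors, while kinases such as GSK3, DYRK and casein kinase 1 send them back. In skeletal muscle this route is known for a part in myoblast fusion and in keeping the slow fibre programme under sustained nerve activity. The array measures transcripts, so it holds no reading of phosphatase activity or of where NFAT protein is in the cell.

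Total RNA came from 4 groups of 3 samples each. The soleus is a slow oxidative muscle and the EDL, the extensor digitorum longus, is fast and glycolytic. Both came from male CD1 mice of 3 months, each sample pooling both hind limb muscles of 1 mouse. Myotubes were C2C12 cells, an established mouse myoblast line, harvested 96 h after a switch at 90% confluence to medium with low horse serum, then loosened with trypsin and left briefly in growth medium so that single cells attached and the floating, mostly fused cells could be collected. Myoblasts were dividing C2C12 cells taken at about 50% confluence. No group carried a genetic change or a drug. C2C12 is 1 line, so the spread between its cultures says nothing of other myoblasts, and the labels do not say whether cultures were grown separately. A muscle sample also holds vessels, nerve, fat, connective tissue and blood cells. In such bulk RNA, fewer cells of a type and less RNA per cell cannot be told apart.

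All values are log2 signals scaled so that every array has the same 75th percentile, which was 476 to 641 signal units in soleus, 482 to 613 in EDL, 1064 to 1288 in myotubes and 1113 to 1645 in myoblasts before scaling. A difference was called when limma gave a Benjamini-Hochberg adjusted p under 0.05 over all tested probes and a log2 difference of at least 1, which is a doubling or halving. Replicate arrays of a group correlated with r of 0.981 or more across probes, and arrays of different groups with r of 0.971 or less. With 3 arrays a group, their number limits the precision. Markers were as labelled: 4 of 4 slow fibre genes (Myh7, Tnni1, Myl2, Atp2a2) were higher in soleus than in EDL, 3 of 4 fast fibre genes (Myh4, Pvalb, Tnni2, Atp2a1) were lower, and 4 of 4 myotube genes (Myog, Myh3, Myh8, Ckm) were higher in myotubes than in myoblasts, where 4 of 5 genes of dividing myoblasts (Ccnb1, Mki67, Top2a, Myf5, Myod1) were lower. Each of 3 slides held 1 array of every group, and slide 1 was scanned on a different day from slides 2 and 3. Because a group always sat at the same position of its slide, an effect of position cannot be separated from one of group.

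The scaling matters for every direction given here. Equal amounts of RNA were labelled with a spike-in control, and scaling by the spike-ins in place of the 75th percentile moved all differences by -0.37 for myotube minus myoblast, -1.03 for EDL minus myotube, -1.22 for soleus minus myotube, -0.19 for soleus minus EDL, -1.4 for EDL minus myoblast and -1.6 for soleus minus myoblast on the log2 scale. The values below are thus relative to the upper quartile of each sample's signals, and spike-in values are given where they changed a call or sign that the text rests on.

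RefSeq promoter windows of build GRCm38.p6, running from 250 bases before to 50 bases after a transcription start, were used for 5 of the 7 genes, and none for Ppp3ca and Nfatc1. Shown are those of the genes among these 5 that had called differences between cultured stages or between muscles: Ppp3cb, Nfatc2 at both of its annotated starts, and Nfatc4. The letters GGAAA, the core that NFAT proteins are known to bind, are in capitals on either strand (TTTCC where the core lies on the other strand). The sequences are written 5′ to 3′ on the strand of the gene.
Ppp3cb, chr14:20546524-20546823, minus strand: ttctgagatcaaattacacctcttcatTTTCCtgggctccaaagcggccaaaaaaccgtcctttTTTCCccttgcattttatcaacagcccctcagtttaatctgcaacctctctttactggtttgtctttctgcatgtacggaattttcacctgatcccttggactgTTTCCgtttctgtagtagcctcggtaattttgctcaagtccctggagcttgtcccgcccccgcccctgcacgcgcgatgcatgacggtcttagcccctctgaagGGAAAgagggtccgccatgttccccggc
Nfatc2, first start, chr2:168601608-168601907, minus strand: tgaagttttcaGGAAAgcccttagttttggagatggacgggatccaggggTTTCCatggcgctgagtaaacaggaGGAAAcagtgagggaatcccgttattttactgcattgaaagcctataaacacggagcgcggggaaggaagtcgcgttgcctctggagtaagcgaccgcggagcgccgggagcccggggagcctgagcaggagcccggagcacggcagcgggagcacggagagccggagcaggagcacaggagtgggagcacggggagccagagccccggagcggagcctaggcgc
Nfatc2, second start, chr2:168590316-168590615, minus strand: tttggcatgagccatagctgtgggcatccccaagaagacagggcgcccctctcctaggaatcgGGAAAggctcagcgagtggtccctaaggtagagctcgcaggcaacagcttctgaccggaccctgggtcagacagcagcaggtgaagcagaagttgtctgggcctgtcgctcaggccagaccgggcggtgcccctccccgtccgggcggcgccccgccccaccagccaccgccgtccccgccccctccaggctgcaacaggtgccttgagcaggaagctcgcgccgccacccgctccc
Nfatc4, chr14:55824545-55824844, plus strand: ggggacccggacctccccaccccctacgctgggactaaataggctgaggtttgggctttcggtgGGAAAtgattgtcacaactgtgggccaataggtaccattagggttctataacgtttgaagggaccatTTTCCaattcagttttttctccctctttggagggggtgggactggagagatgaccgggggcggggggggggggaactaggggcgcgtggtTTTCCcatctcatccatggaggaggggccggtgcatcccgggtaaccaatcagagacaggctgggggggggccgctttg

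The core was present 4 times in the Ppp3cb window, 3 times in the first and once in the second Nfatc2 window, and 3 times in the Nfatc4 window. Of 32851 mouse promoter windows of the same length, 61.3% held it at least once, with a median of 1 site. The E-box CANNTG, read the same on both strands, was present once for Ppp3cb, 0 times in the first Nfatc2 window, 2 times in the second Nfatc2 window and once for Nfatc4, against 72.3% of all windows with at least 1. No core overlapped an E-box in these windows. The remaining windows, of Ppp3r1 and Nfatc3, held the core 0 times for Ppp3r1 and 1 time and 0 times at the starts of Nfatc3. These letters are a description of the sequence and not evidence of binding.

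**Figure D1:**
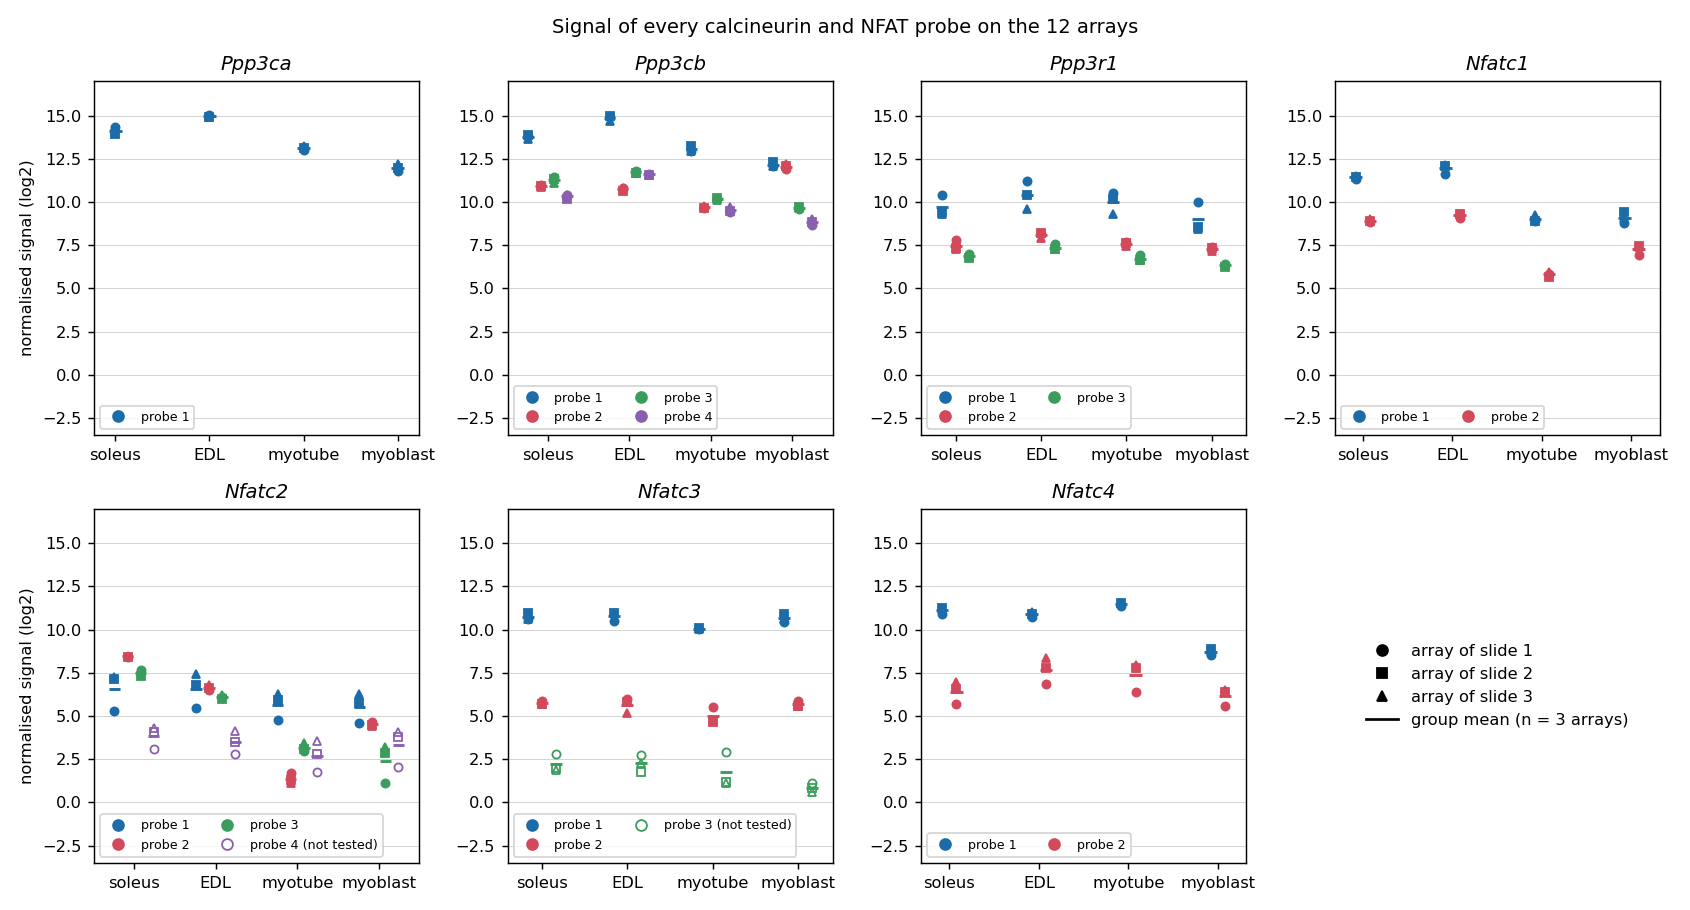
Normalised log2 signal of each of the 19 probes on the 12 arrays, with 1 panel per gene, 1 colour per probe, 1 symbol per slide and a bar at each group mean (n = 3 arrays); open symbols are the 2 probes that were not tested. Ppp3ca lies at 14.90 to 15.05 in EDL and at 11.79 to 12.17 in myoblasts, and Nfatc2 probe 2 at 8.44 to 8.48 in soleus, 6.51 to 6.82 in EDL, 1.13 to 1.72 in myotubes and 4.44 to 4.65 in myoblasts.

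Ppp3ca encodes the alpha catalytic subunit of calcineurin, and its single probe (mm8 chr3:136872888-136872948, plus strand) put the 4 groups in an order with no overlap. Its signal was 14.33, 13.92 and 14.15 in soleus, 15.05, 14.91 and 14.90 in EDL, 13.02, 13.12 and 13.23 in myotubes and 11.79, 11.97 and 12.17 in myoblasts (log2, replicates 1 to 3). EDL was thus highest, then soleus, then myotubes, then myoblasts, on each of the 3 slides. Myotubes exceeded myoblasts by 1.14 ± 0.13 (SE; 2.21-fold; limma, Benjamini-Hochberg adjusted p = 2.43e-05). EDL exceeded myotubes by 1.83 ± 0.13 (3.56-fold, adjusted p = 4.26e-07) and soleus exceeded myotubes by 1.01 ± 0.13 (2.02-fold, adjusted p = 4.7e-05). Between the muscles, soleus was 0.82 lower than EDL (difference -0.82, 95% interval -1.11 to -0.53, adjusted p = 0.000941), a difference past the p threshold but short of the minimum size. With the spike-ins the myotube over myoblast difference was 0.77 (adjusted p = 0.135) and the EDL over myotube difference 0.80 (adjusted p = 0.0823), while the soleus over myotube difference turned to -0.21 (adjusted p = 0.644). The soleus over myotube call was also lost after quantile normalization (0.88), in the authors' values (0.89), with normexp background correction (0.60, adjusted p = 0.21), and without replicate 1 of soleus (0.92) or of myotubes (0.96). Soleus exceeded myoblasts by 2.16 (0.56 and not called with the spike-ins) and EDL by 2.97 (1.57, called).

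Ppp3cb, the beta catalytic subunit, was read by 4 probes, and 3 of them behaved like Ppp3ca. Probe 1 (mm8 chr14:19288595-19288654, minus strand, as for all 4) gave 13.84, 13.87 and 13.64 in soleus, 14.91, 14.97 and 14.70 in EDL, 12.96, 13.23 and 12.96 in myotubes and 12.10, 12.29 and 12.11 in myoblasts. The groups again did not overlap, with EDL highest and myoblasts lowest. EDL exceeded myotubes by 1.81 ± 0.12 on probe 1, 1.53 ± 0.10 on probe 3 and 2.07 ± 0.12 on probe 4, which are 3.51-fold, 2.89-fold and 4.21-fold (adjusted p = 1.9e-07, 1.7e-07 and 7.52e-08). With the spike-ins these were 0.78, 0.50 and 1.05, and the last of them alone was called. In the soleus the excess over myotubes was 0.73, 1.09 and 0.81 on the same probes, and only that of probe 3 reached the minimum size, a call that turned to -0.13 with the spike-ins. Soleus was lower than EDL on probe 1 (-1.08 ± 0.12, adjusted p = 7.04e-05) and on probe 4 (-1.26 ± 0.12, adjusted p = 2.73e-05), and by -0.44 on probe 3. The probe 4 difference was called under every normalization tried (spike-in difference -1.46, adjusted p = 0.0487). That of probe 1 was -0.97 after quantile normalization and -0.95 in the authors' values, just short of the minimum size, and -1.27 with the spike-ins (adjusted p = 0.0662). Myotubes exceeded myoblasts by 0.89, 0.54 and 0.70 on probes 1, 3 and 4, none of them called. Against myoblasts the same probes were higher by 1.62, 1.63 and 1.51 in soleus and by 2.70, 2.07 and 2.77 in EDL, all called. With the spike-ins none of the soleus calls held (0.02, 0.03 and -0.09), and in EDL those of probes 1 and 4 did (1.29 and 1.37) and that of probe 3 did not (0.66).

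Probe 2 of Ppp3cb (A_52_P457382) was designed on a cDNA (AK135203), as was probe 3, and did not follow the others. It gave 10.98, 10.91 and 10.88 in soleus, 10.80, 10.64 and 10.79 in EDL, 9.67, 9.65 and 9.74 in myotubes and 11.90, 12.07 and 12.18 in myoblasts, so that myoblasts were highest and myotubes lowest. The probe fell by 2.36 ± 0.09 in myotubes against myoblasts (5.15-fold lower, adjusted p = 6.31e-09), the largest drop between these groups among member probes well above background in both. It was also lower in both muscles than in myoblasts, with differences of -1.13 ± 0.09 for soleus and -1.31 ± 0.09 for EDL. Its signal correlated with those of probes 1, 3 and 4 at r of -0.36, -0.26 and -0.28 over the 12 arrays, where probes 1, 3 and 4 correlated with each other at 0.95 to 0.98. These arrays share the 4 groups, and the correlations are given as a description. On the minus strand probe 2 (chr14:19296466-19296525) lies between probe 3 (chr14:19304052-19304111), upstream, and probe 4 (chr14:19290139-19290198), downstream. Whether these spans are exons, introns or UTRs was not analysed here, as no gene models of build mm8 were used. The sign of the myotube against myoblast difference of probe 2 was negative under every normalization tried and without any 1 array, and its excess in EDL and soleus over myotubes (1.06 ± 0.09 and 1.24 ± 0.09) shrank to 0.03 and 0.01 with the spike-ins.

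The regulatory subunit B, which binds calcium and is encoded by Ppp3r1, was called in fewer comparisons than the catalytic subunits. Probe 1 (mm8 chr11:17100321-17100380, plus strand) gave 10.41, 9.42 and 9.29 in soleus, 11.20, 10.41 and 9.61 in EDL, 10.51, 10.15 and 9.31 in myotubes and 9.98, 8.58 and 8.43 in myoblasts. In every group the array of slide 1 was highest and that of slide 3 lowest, and the groups overlapped. Probes 2 and 3, at chr11:17094237-17094688 and chr11:17093001-17093060, spread less: probe 3 averaged 6.89 in soleus, 7.36 in EDL, 6.72 in myotubes and 6.34 in myoblasts. None of the 3 probes was called between myotubes and myoblasts, between either muscle and myotubes, or between soleus and EDL. Soleus minus EDL was -0.70, -0.63 and -0.47 on probes 1 to 3. On probes 2 and 3 it was past the p threshold (limma, adjusted p = 0.0105 and 0.0123) and short of the minimum size. With the slide as a replicate block, probe 1 passed that threshold too (-0.70 ± 0.19, adjusted p = 0.0195). So did its myotube minus myoblast difference (0.99 ± 0.19, adjusted p = 0.0018), and both stayed short of the minimum size. Its EDL minus myotube and soleus minus myotube differences did not pass with the block (adjusted p = 0.0765 and 0.205). EDL exceeded myoblasts by 1.02 ± 0.12 on probe 3 (adjusted p = 1.46e-05) and by 1.41 ± 0.54 on probe 1 (adjusted p = 0.0349). The first of these turned to -0.38 with the spike-ins and to -0.08 with normexp background correction, and the second became 0.01 with the spike-ins and was lost without EDL replicate 1 (1.01, adjusted p = 0.126) or 2, or without myoblast replicate 2 or 3. Relative to the spike-ins all 3 probes were called lower in soleus than in myotubes, with differences of -1.51, -1.35 and -1.05.

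Nfatc1, the NFAT factor with an inducible short isoform, was higher in both muscles than in either cultured stage when scaled by the 75th percentile. Probe 1 gave 11.34, 11.46 and 11.52 in soleus, 11.61, 12.07 and 12.16 in EDL, 8.87, 8.89 and 9.23 in myotubes and 8.76, 9.43 and 9.06 in myoblasts. Probe 2, designed on another transcript of the gene, gave 8.82, 8.90 and 9.01 in soleus, 9.09, 9.31 and 9.29 in EDL, 5.85, 5.68 and 5.92 in myotubes and 6.95, 7.46 and 7.37 in myoblasts. All muscle arrays lay above all culture arrays on both probes. EDL exceeded myotubes by 2.95 ± 0.19 (7.72-fold, adjusted p = 2.17e-07) and 3.42 ± 0.14 (10.7-fold, adjusted p = 6.12e-09), and soleus exceeded myotubes by 2.44 ± 0.19 (5.44-fold, adjusted p = 1.03e-06) and 3.10 ± 0.14 (8.55-fold, adjusted p = 1.34e-08). These 4 differences kept their call with the spike-ins, at 1.92, 2.39, 1.22 and 1.87. Against myoblasts, probes 1 and 2 were higher by 2.36 and 1.65 in soleus and by 2.86 and 1.97 in EDL. With the spike-ins the excess over myoblasts was 0.76 and 0.06 in soleus, neither of them called, and 1.46 and 0.57 in EDL, the first of them called. Normexp correction also ended both probe 2 calls against myoblasts (0.85 in soleus and 0.93 in EDL).

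The 2 Nfatc1 probes parted between the cultured stages. Probe 2 was lower in myotubes than in myoblasts by 1.44 on the log2 scale (difference -1.44 ± 0.14, adjusted p = 6.88e-06) and probe 1 differed by -0.08 (95% interval -0.51 to 0.35). Between the muscles, soleus minus EDL was -0.50 (95% interval -0.93 to -0.07, adjusted p = 0.0768) on probe 1 and -0.32 (-0.63 to -0.01, adjusted p = 0.117) on probe 2. Neither passed the test, and all soleus arrays lay below all EDL arrays on both. With the replicate block the adjusted p were 0.0199 and 0.0529, and neither difference reached the minimum size.

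Nfatc2, first described as the NFAT protein of T cells and known in mouse muscle for a part in the growth of myotubes after fusion, gave the largest contrast of the 7 genes. Probe 2 (mm8 chr2:168224890-168224949, minus strand) gave 8.44, 8.44 and 8.48 in soleus, 6.51, 6.62 and 6.82 in EDL, 1.72, 1.28 and 1.13 in myotubes and 4.65, 4.5 and 4.44 in myoblasts. All 3 myotube arrays read it at background level, so that group allows only bounds. A bound sets the mean of the brighter group against a floor on the arrays of the dim one. This floor is the lowest signal of any probe well above background there, or the probe's own signal where that is higher. Some probes above that lowest signal were still not well above background, so the bounds are approximate. The probe was at least 31.8-fold higher in soleus than in myotubes, at least 9.07-fold higher in EDL than in myotubes and at least 2.09-fold lower in myotubes than in myoblasts. The bounds themselves were not tested. For the measured differences, which use myotube signals at background level, limma gave adjusted p = 7.05e-11, 3.85e-10 and 2.5e-08 in the same order. Measured group means were 8.46 in soleus, 6.65 in EDL, 1.37 in myotubes and 4.53 in myoblasts. Soleus and EDL exceeded myoblasts by 3.92 ± 0.15 and 2.12 ± 0.15. Normexp background correction kept the soleus over myotube call and lost the others on this probe. It gave -1.55 for myotube minus myoblast (adjusted p = 0.21), 1.54 for EDL minus myotube (adjusted p = 0.185), 1.38 for soleus minus myoblast and -0.01 for EDL minus myoblast. The standard error of the first 2 was 0.77 with normexp, against 0.15 in the main fit. Spike-in scaling lost EDL minus myoblast alone (0.71, adjusted p = 0.088).

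The muscles also differed from each other on probes 2 and 3 of Nfatc2. Soleus exceeded EDL by 1.81 ± 0.15 on probe 2 (3.50-fold, 95% interval 1.48 to 2.13, adjusted p = 9.76e-06), with within-slide differences of 1.93, 1.83 and 1.67. Probe 3 (chr2:168227462-168227521) gave 7.64, 7.31 and 7.58 in soleus, 6.11, 5.97 and 6.19 in EDL, 2.96, 3.10 and 3.42 in myotubes and 1.14, 2.84 and 3.20 in myoblasts, where it was well above background on no myotube array and 1 myoblast array. On it soleus exceeded EDL by 1.42 ± 0.42 (2.67-fold, adjusted p = 0.0296), and the muscles were at least 15.8-fold (soleus) and at least 5.94-fold (EDL) above myotubes, calls that normexp correction lost (adjusted p = 0.075 and 0.43). Probe 3 passed the filter only through the muscles, so its excess over culture was partly set by that filter. The soleus over EDL call of probe 3 was lost when any 1 soleus or EDL array was left out, with adjusted p of 0.0536 to 0.0803 and differences of 1.35 to 1.52. With normexp correction the soleus over EDL differences of probes 2 and 3 were 1.39 and 1.17 and neither passed (adjusted p = 0.593 and 0.645). The spike-ins left probe 2 called at 1.61 (adjusted p = 0.0159) and probe 3 not, at 1.22 (adjusted p = 0.35).

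Probe 1 of Nfatc2 (chr2:168171046-168171105) gave another picture. Its values were 5.30, 7.12 and 7.27 in soleus, 5.49, 6.81 and 7.43 in EDL, 4.77, 5.93 and 6.25 in myotubes and 4.57, 5.75 and 6.28 in myoblasts. Slide 1 was lowest and slide 3 highest in every group, and the standard error of a difference was 0.70, so nothing was called. With the slide as a replicate block, EDL minus myoblast (1.04, adjusted p = 0.000132) and soleus minus myoblast (1.03, adjusted p = 0.000146) were called. Soleus minus EDL was then -0.01 ± 0.14 (adjusted p = 0.949), and without the block its 95% interval was -1.57 to 1.55. With the block, probe 1 thus lacked the soleus excess over EDL that probes 2 and 3 gave. Along the gene, on the minus strand, probes 3 and 2 lie upstream and probe 1 downstream. The fourth probe (chr2:168167615-168167633, a mapped span shorter than the others) was well above background on 2 myoblast arrays and no other, and was not tested.

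Markers of other cell types moved with the muscle contrasts of Nfatc1 and Nfatc2. Of 8 endothelial genes, 8 were higher in soleus and 8 in EDL than in myotubes, with mean levels over the list of 11.15 to 11.18 in soleus, 10.98 to 11.06 in EDL, 2.93 to 3.33 in myotubes and 3.07 to 3.58 in myoblasts. Of 9 macrophage and leukocyte genes, 8 were higher in either muscle than in myotubes (8.57 to 8.69 in soleus, 8.39 to 8.62 in EDL, 3.46 to 3.79 in myotubes and 3.33 to 3.57 in myoblasts), although C1qb among them turned to -0.06 (soleus) and -0.02 (EDL) with the spike-ins. Fibroblast genes (6 of 6), smooth muscle and pericyte genes (5 of 5), Schwann cell genes (5 of 5) and adipocyte genes (4 of 4) were also higher in both muscles than in myotubes. On a culture array, 2 to 4 of 8 endothelial, 4 to 5 of 9 macrophage and 1 of 4 adipocyte genes were well above background. Some of these genes thus passed the filter only through the muscles, and their excess over culture was partly set by that filter. Only 5 of 11 lymphocyte genes were measured, among them 2 higher in soleus and 3 higher in EDL than in myotubes, and Cd3d, Cd3g, Cd2, Cd8a, Cd79a and Ms4a1 were not above background on all arrays of any group. Their part in the muscle against culture differences was not tested. Between soleus and EDL, 0 of the endothelial, macrophage, fibroblast, smooth muscle and lymphocyte genes measured were called, while 3 of 4 adipocyte genes and 1 of 5 Schwann cell genes were higher in soleus. Each gene was counted by its brightest tested probe. On that basis 45.4% of all genes were called between soleus and myotubes, 47.9% between EDL and myotubes and 9.71% between soleus and EDL.

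Nfatc3, an NFAT factor known to be abundant in skeletal muscle, was the one member that limma called in 0 of the 6 comparisons. Probe 1 (mm8 chr8:109017395-109017454, plus strand) gave 10.64, 10.95 and 10.60 in soleus, 10.51, 10.95 and 10.95 in EDL, 10.03, 10.11 and 10.02 in myotubes and 10.45, 10.90 and 10.60 in myoblasts. The 3 myotube arrays lay below all 9 others. The myotube minus myoblast difference was -0.60 (95% interval -0.95 to -0.25, adjusted p = 0.00719) on probe 1 and -0.69 (-1.26 to -0.12, adjusted p = 0.0375) on probe 2 (chr8:108981194-108981253), both past the p threshold and short of the minimum size. With the spike-ins that of probe 2 was -1.07 and called (adjusted p = 0.0196). EDL minus myotube was 0.75 and 0.67, and soleus minus myotube was 0.68 and 0.76, on probes 1 and 2, none called, and all 4 were negative with the spike-ins (-0.27 and -0.36 in EDL, -0.54 and -0.46 in soleus). Soleus minus EDL was -0.07 (95% interval -0.43 to 0.28) and 0.09 (-0.48 to 0.66). With the spike-ins these probes were called lower in both muscles than in myoblasts, at -1.51 and -1.53 for soleus and at -1.25 and -1.43 for EDL, where the main differences were all within 0.16 of 0. The third probe (chr8:108990007-108990066) was not above background on any array.

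Nfatc4 was the only NFAT gene of the 4 with a probe that rose in myotubes against myoblasts. Probe 1 (mm8 chr14:54787776-54787835, plus strand) gave 10.90, 11.23 and 11.24 in soleus, 10.72, 10.91 and 11.05 in EDL, 11.39, 11.57 and 11.53 in myotubes and 8.56, 8.87 and 8.75 in myoblasts. Myotubes were highest, above every muscle array, and exceeded myoblasts by 2.77 ± 0.13 (6.82-fold, adjusted p = 3.12e-08). Soleus and EDL exceeded myoblasts by 2.40 and 2.17 and lay at -0.37 and -0.60 relative to myotubes, differences that were not called. With the spike-ins the myotube over myoblast call held (2.40, adjusted p = 0.000536), the muscle over myoblast calls were lost (0.80 in soleus and 0.76 in EDL), and both muscles were called lower than myotubes (-1.60 and -1.63).

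The second Nfatc4 probe (chr14:54781383-54781442) spread widely, at 5.69, 6.54 and 6.97 in soleus, 6.85, 7.81 and 8.36 in EDL, 6.42, 7.79 and 7.96 in myotubes and 5.58, 6.41 and 6.52 in myoblasts. Slide 1 was lowest in every group, the groups overlapped in most comparisons, and only EDL minus myoblast was called (1.5 ± 0.52, adjusted p = 0.023). That call was lost without EDL replicate 2 or 3 or myoblast replicate 1, after quantile normalization and in the authors' values (1.03 in both), and with the spike-ins (0.10). With the replicate block, myotube minus myoblast (1.22, adjusted p = 6.59e-05) and soleus minus EDL (-1.27, adjusted p = 0.000174) were called as well. Soleus minus EDL was also called after quantile normalization (-1.40, adjusted p = 0.0431) and in the authors' values (-1.42, adjusted p = 0.0432). Soleus minus myotube, at -0.99 and not called, was called after quantile normalization (-1.34), in the authors' values (-1.38) and with the spike-ins (-2.21, adjusted p = 0.016). Probes 1 and 2 of Nfatc4 correlated at r = 0.55 over the 12 arrays.

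**Figure D2:**
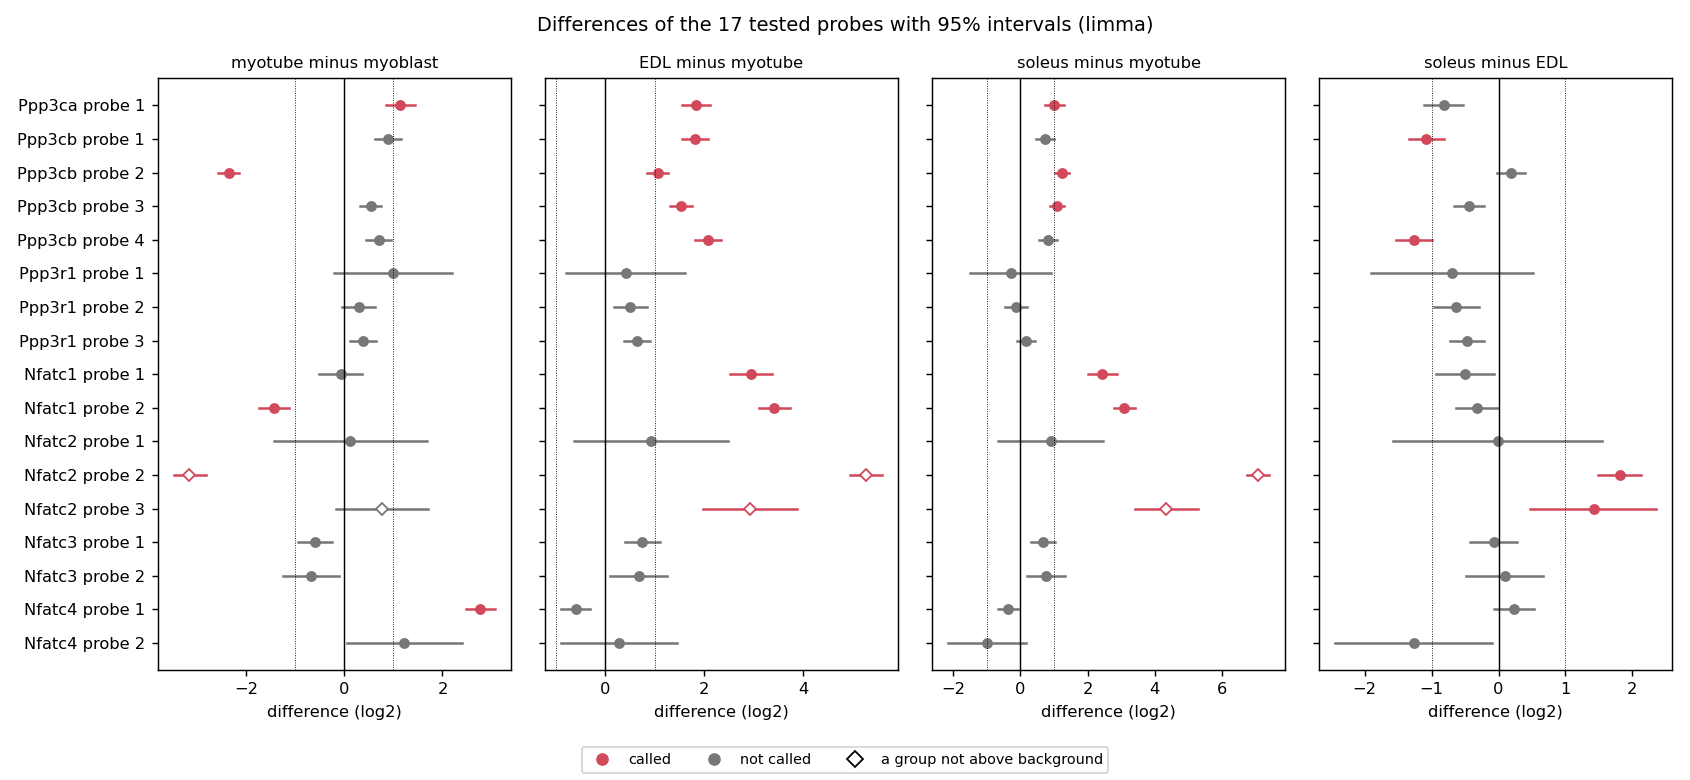
Log2 differences of the 17 tested probes in the 4 main comparisons, as points with 95% intervals from limma over the 12 arrays; red marks called differences, grey those not called, and open diamonds those in which a group was not well above background. In soleus minus EDL, Nfatc2 probes 2 and 3 lie at 1.81 and 1.42 and Ppp3cb probes 1 and 4 at -1.08 and -1.26.

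Counted over the probes, 5 of the 17 were called between myotubes and myoblasts (2 higher, 3 lower), where 35.1% of all tested probes were called. Against myotubes, 9 were higher and 0 lower in EDL (46.5% of all probes called), and 7 were higher and 0 lower in soleus (44.4%). Between soleus and EDL 4 were called, 2 higher and 2 lower (9.40%). Against myoblasts, 12 were higher and 1 lower in EDL (56.9%), and 9 were higher and 1 lower in soleus (54.9%). After spike-in scaling, the counts against myoblasts were 5 higher and 3 lower in EDL, and 2 higher and 5 lower in soleus. Most of these counts stand near the share of the whole array, and those for EDL against myoblasts and soleus against EDL above it. Probes of 1 gene are not independent, and the soleus against EDL count rests on a pair of probes each of Nfatc2 and Ppp3cb. The median difference of the 17 probes was 1.06 for EDL minus myotube, 0.81 for soleus minus myotube, 0.38 for myotube minus myoblast and -0.44 for soleus minus EDL, against medians over all probes of 0.16, 0.10, 0.05 and -0.04. Of the 17, Nfatc2 probe 3 alone passed the filter only through groups where it was high. As probes of 1 gene are not independent, these medians describe the tested probes and support no more.

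**Figure D3:**
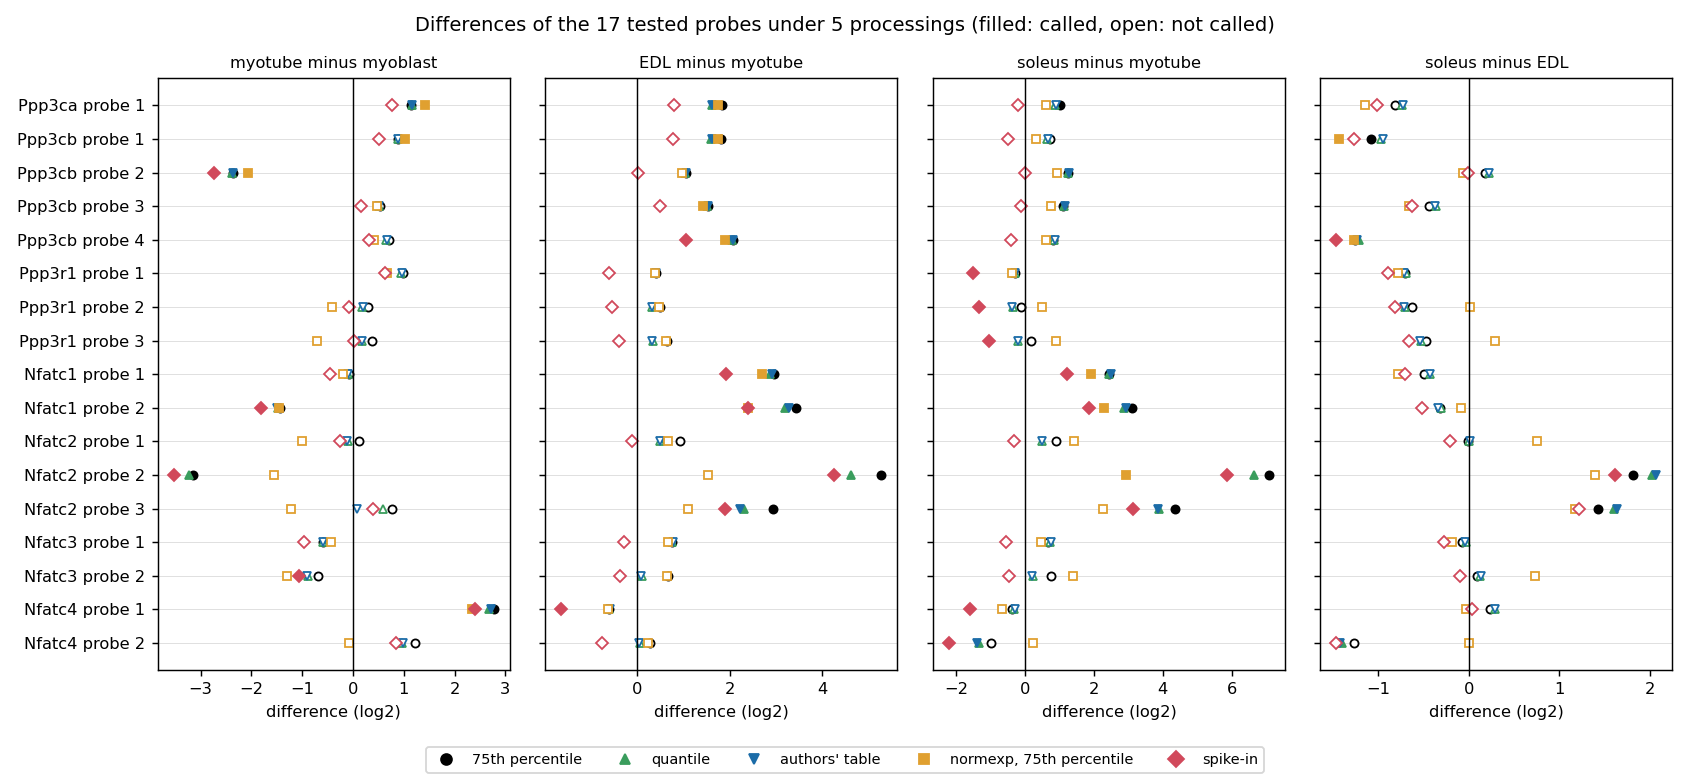
The differences of the 17 tested probes in the 4 main comparisons after 5 processings of the same arrays: scaling by the 75th percentile, quantile normalization, the authors' deposited values, normexp background correction and scaling by the spike-ins; filled symbols were called and open ones were not. In soleus minus myotube, Ppp3ca lies at 1.01 with the 75th percentile and at -0.21 with the spike-ins, and Nfatc2 probe 2 at 7.08 and 5.86.

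Scaling also moved the balance of directions over the whole array. Of the called probes, 53.5% were higher in myotubes than in myoblasts, 56.9% higher in EDL and 55.1% higher in soleus than in myotubes, 51.7% higher in soleus than in EDL, and 55.9% (EDL) and 54.4% (soleus) higher in muscle than in myoblasts. With the spike-ins the same shares were 35.5%, 22.0%, 17.6%, 38.7%, 21.9% and 18.6%. After quantile normalization 46.0% were higher in EDL than in myotubes, 44.9% in EDL than in myoblasts and 44.2% in soleus than in myoblasts, and in the authors' values 45.6%, 44.2% and 43.6%. Normexp correction gave 37.0% for soleus against EDL. For the members in the other comparisons, the spike-ins left 1 higher and 4 lower in myotubes against myoblasts, 5 higher and 1 lower in EDL against myotubes, 4 higher and 5 lower in soleus against myotubes, and 1 in each direction in soleus against EDL. The members called in the same direction between both muscles and myotubes with the spike-ins as well were both Nfatc1 probes and Nfatc2 probes 2 and 3. Of these, Nfatc2 probe 3 passed the filter only through the muscles, where it was high, so its calls are no support.

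Genes around calcineurin and NFAT were counted from 6 lists, each gene by its brightest tested probe. On that basis 35.4% of all genes were called between myotubes and myoblasts, 47.9% between EDL and myotubes, 45.4% between soleus and myotubes, 9.71% between soleus and EDL, 58.0% between EDL and myoblasts and 55.5% between soleus and myoblasts. On the same basis 2, 3, 2, 1, 5 and 4 of the 7 member genes were called in these comparisons. The remaining calcineurin subunits stayed uncalled in the first 4 comparisons. Ppp3cc, the gamma catalytic subunit, averaged 12.57 in soleus, 12.54 in EDL, 11.60 in myotubes and 10.79 in myoblasts. It exceeded myoblasts by 1.77 in soleus and 1.75 in EDL, and Ppp3r2, known as the testis regulatory subunit, by 1.07 in EDL alone. Scaled to the spike-ins, the Ppp3cc differences were 0.18 and 0.35 and not called. That Ppp3r2 difference turned to -0.33 with the spike-ins and to -0.29 with normexp correction.

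The regulators and binding proteins of calcineurin (13 of 13 measured) held 5 called genes between soleus and EDL, 3 higher and 2 lower. Rcan1 and Rcan2, whose proteins bind and restrain calcineurin, each exceeded EDL by 1.67 in soleus (adjusted p = 4.48e-07 and 2.06e-06), calls that held with the spike-ins and were lost with normexp correction (1.28 and 1.23, adjusted p = 0.0544 and 0.121). Rcan1 averaged 13.89 in soleus, 12.23 in EDL, 11.64 in myotubes and 9.91 in myoblasts, and Rcan2 15.19, 13.52, 11.29 and 9.49 in the same groups. Myoz2, a Z-disc protein that binds calcineurin and is known from slow and cardiac muscle, was 4.12 higher in soleus than in EDL, and its fast-fibre relative Myoz1 was lower by 2.03 (difference -2.03), a call also lost with normexp correction (adjusted p = 0.0992). Rcan3 differed by 0.53 and was not called. Between myotubes and myoblasts 4 were higher and 2 lower, led by Myoz2 (8.82), Myoz1 (4.16), Rcan2 (1.80) and Rcan1 (1.73), with Rcan3 at -0.74 not called. Against myotubes, 5 were higher and 3 lower in EDL, led by Myoz1 (8.40), the anchoring protein Akap5 (4.36), the cyclophilin Ppia (-2.61) and Rcan2 (2.23), with Rcan1 at 0.59 not called. In soleus 5 were higher and 1 lower than in myotubes, led by Myoz1 (6.38), Akap5 (5.12), Rcan2 (3.90) and Ppia (-2.77), with Rcan3 at 0.07 not called. Akap5 was well above background on only 1 myotube array, and its EDL over myotube call, like the myotube over myoblast call of Myoz1, was lost with normexp correction (1.91 and 1.85). Under spike-in scaling, 4 of the list were higher and 7 lower in myotubes against myoblasts, and 3 higher and 5 lower in EDL and 5 higher and 6 lower in soleus against myotubes.

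Calcium entry and release genes were measured for 14 of 14 listed. In myotubes 6 were higher and 4 lower than in myoblasts, among them Cacna1s (6.50), the voltage sensor of the muscle membrane, Ryr1 (6.18), the release channel of the sarcoplasmic reticulum, and Ryr3 (3.26), with the store sensor Stim2 at 0.69 not called. EDL had 7 higher and 3 lower than myotubes, among them Ryr3 (-5.81), the plasma membrane channel Orai2 (-4.38) and the inositol trisphosphate receptor Itpr1 (2.90), with Stim2 at -0.71 not called. Soleus had 7 higher and 4 lower than myotubes, among them Ryr3 (-4.87), Orai2 (-4.33) and Trpc4, at least 5.90-fold higher, with Orai1 at -0.33 not called. Between soleus and EDL, Trpc1 was higher (1.36) and Stim2 lower (-1.80), and Stim1 at -0.08 was not called. The Trpc1 call was lost with the spike-ins (1.17) and with normexp correction (1.14), which also ended the Trpc4 call (1.92, adjusted p = 0.148). By the spike-ins, 6 of the list were higher and 4 lower in myotubes against myoblasts, and 4 were higher and 6 lower in EDL, and 3 higher and 5 lower in soleus, against myotubes.

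Of the kinases that act on NFAT, 10 of 12 listed were measured. Dyrk1b (1.89) and Dyrk1a (1.21) were higher in myotubes than in myoblasts, and Gsk3a at -0.14 was not called. The first call was lost with normexp correction (0.46) and the second with the spike-ins (0.83). Dyrk1b (2.50 in EDL, 2.73 in soleus) and the p38 kinase Mapk14 (1.61 in EDL, 1.14 in soleus) were higher in the muscles than in myotubes, the Mapk14 calls being lost with the spike-ins (0.58 in EDL, -0.08 in soleus). Dyrk3 was at least 43.6-fold lower in EDL and at least 53.6-fold lower in soleus than in myotubes, with no muscle array well above background. Gsk3a, at 0.75 in EDL and 0.45 in soleus, was not called. With the spike-ins 1 of the 10 was higher and 7 lower in EDL, and 1 higher and 6 lower in soleus, against myotubes. Between soleus and EDL limma called 0 of the 10.

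Partners of NFAT were measured for 13 of 13 listed genes. In myotubes 5 were higher and 1 lower than in myoblasts, led by the muscle transcription factor Mef2c (6.34), Fosl1 (-4.38), Fos (2.65) and Mef2a (1.68), with the calcium-independent relative Nfat5 at 0.10 not called. EDL had 2 higher and 5 lower than myotubes. These were led by the scaffold protein Homer2, at least 132-fold higher, the AP-1 genes Junb (-3.37) and Fosl1, at least 5.30-fold lower (a call lost with normexp correction), and Fos (-2.85), with Nfat5 at -0.93 not called. Soleus had 3 higher and 5 lower than myotubes, led by Homer2, at least 1757-fold higher, Junb (-3.48), Fosl1 (-2.36, which turned to 0.38 with normexp correction) and Homer1 (1.93, and 0.71 and not called with the spike-ins), with Mef2a at -0.81 not called. Homer2 averaged 14.25 in soleus and 10.51 in EDL, was called between them (3.73, adjusted p = 9.47e-05), and was not well above background in culture. Homer2 thus passed the filter only through the muscles, so its excess over myotubes was partly set by that filter. Fos was also higher in soleus than in EDL (1.46), and Nfat5 at -0.12 was not called. The Homer2 call between the muscles was lost with normexp correction (3.31, adjusted p = 0.104) and that of Fos with the spike-ins (1.27, adjusted p = 0.156). With the spike-ins 2 of the 13 were higher and 9 lower in EDL, and 1 higher and 8 lower in soleus, against myotubes.

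Genes reported to respond to calcineurin or NFAT in muscle were measured for 11 of 12, Il4 being the exception. Between soleus and EDL 5 were higher and 0 lower: the slow troponins Tnnc1 (6.15), Tnni1 (5.75) and Tnnt1 (5.20), the slow myosin Myh7 (3.30) and Rcan1. Myh2 at 0.46 was not called. Several of them also mark the slow muscle by definition, so that their direction is no independent evidence on the pathway. All 11 were called between myotubes and myoblasts, 9 higher and 2 lower, led by Myh2 (10.04), myoglobin Mb (6.83), Tnni1 (6.38) and Tnnc1 (6.29). EDL had 3 higher and 6 lower than myotubes, led by Ptgs2, at least 36.5-fold lower, Il6 (-6.22), Tnnc1 (-5.92) and Tnni1 (-5.41), with Rcan1 not called. Soleus had 6 higher and 3 lower, led by Ptgs2, at least 44.8-fold lower, Il6 (-6.30), the coactivator Ppargc1a (4.99) and Myh2 (4.71), with Tnni1 at 0.35 not called. Il6 was well above background on 1 array of each muscle, and Ptgs2 on none.

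**Figure D4:**
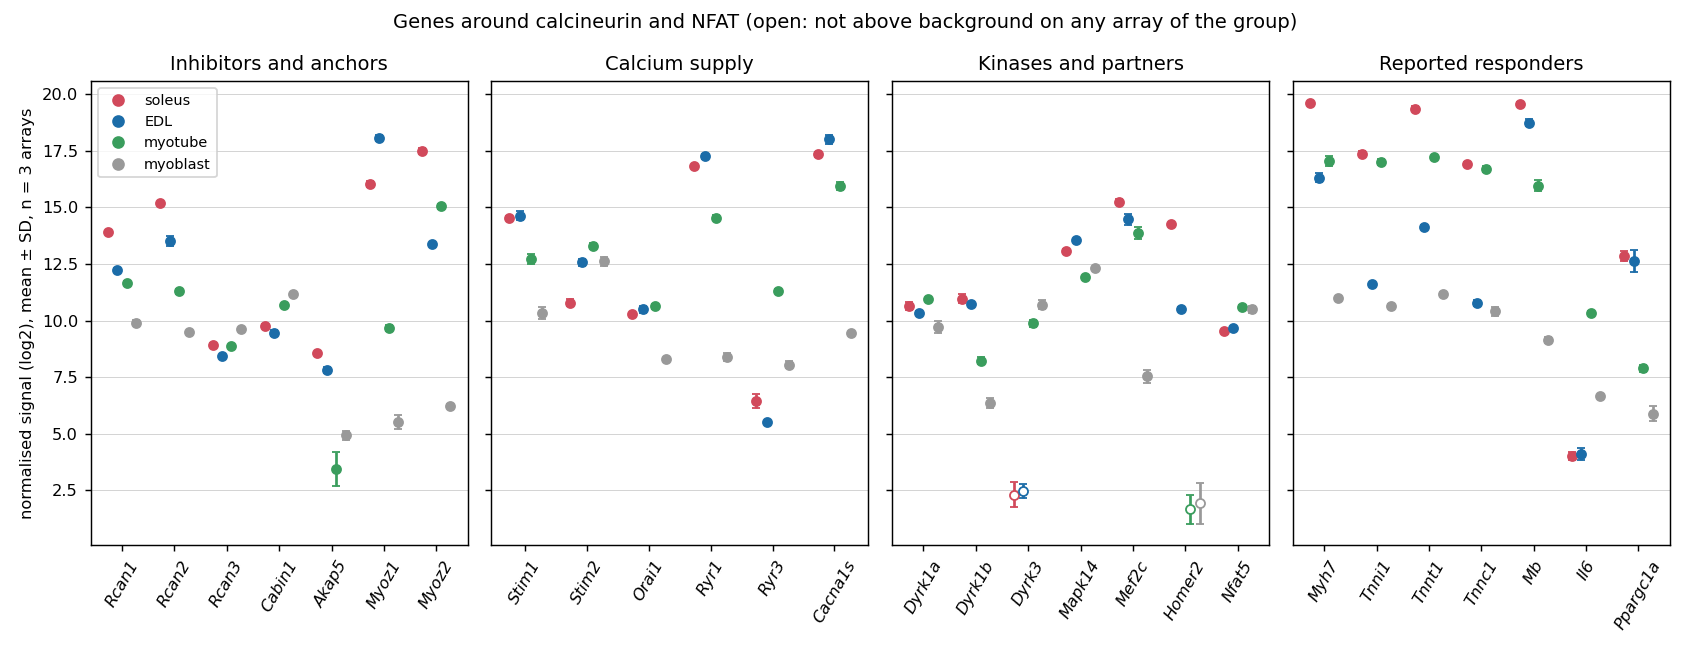
Normalised log2 signal of genes around calcineurin and NFAT, as mean ± SD of 3 arrays per group, with open symbols where no array of a group was well above background. Rcan1 averages 13.89 in soleus and 12.23 in EDL, Myoz2 17.48 and 13.36, and Tnni1 17.36 and 11.61.

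Probes whose signal was among the most like a member's over the 12 arrays were sought among 28458 probes with a value on all arrays. They were Lypla1, Ksr1 and Plcd4 for Ppp3ca (r of 0.996, 0.995 and 0.995), Slc4a9 and Sec23a for Ppp3cb (0.992 and 0.991), and Snrnp35, Rdm1 and Cs for Nfatc1 (0.995, 0.994 and 0.994). Nfatc4 was most like Nipal3, Mpi and Filip1 (0.995, 0.995 and 0.994) and Nfatc3 like Tns1, U2surp and Plekha5 (0.962, 0.955 and 0.944). For Ppp3r1 the closest were Gt(ROSA)26Sor, Sco1 and Bet1 (0.893, 0.886 and 0.886), and for the slide-bound probe 1 of Nfatc2 they were 4930591A17Rik, Lsamp and Ly6g6d (0.992, 0.987 and 0.986). All these arrays share the 4 groups and the slides, so a high r describes a shared order of groups, of slides or of both.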

How the data were processed

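RNA of the 12 samples was labelled with Cy3 and hybridized to 12 one-colour Agilent arrays. Per the file headers, Agilent Feature Extraction 10.5.1.1 made the deposited scanner files, in which each spot has a background-subtracted, detrended processed intensity and flags for background, saturation and outliers. A table of values deposited by the authors gives an intensity on the linear scale whose between-array normalization is not given in the sources used here; its array medians were 123 to 282.7, with 4913 to 11499 values missing per array, and its log2 values correlated with the scanner values at r of 0.9976 or more. It served as an alternative.

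Of 43379 spots that were not controls, 68 to 140 outliers per array were left out, no spot was saturated, and spots of a probe were averaged. Log2 signals were scaled by each array's 75th percentile, with 9.71 added back. Names come from the files, updated through RefSeq where they matched (24375 probes by accession, 6301 by symbol, 2426 by synonym, 8072 kept as filed); positions come from the design, in mm8. Tested probes were those flagged well above background on each of the 3 arrays of any group. limma 3.58.1 in R 4.3.3 was fitted to all 12 arrays with 4 group means (two-sided tests, with 8 residual degrees of freedom and 1.84 from the prior), and p was adjusted by Benjamini-Hochberg over all 28607 probes. These p-values measure the spread between these samples, which may in part be technical. Probes of a gene were numbered by mean signal. The members and lists, the latter with 131 entries of which 122 were measured, were chosen with earlier results of these data known. Every member probe is named. Of a list, the genes named are all called ones of lists of up to 5 genes, otherwise up to 4 with the largest difference per comparison and the first listed one not called; a gene's likeness is Pearson's r over the 12 arrays. Some genes that this rule picks are not reported here. The fit was tested on simulated data. Promoters are RefSeq's.

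Replicate numbers are slides, and same-numbered arrays deviated together from their group means in each of 18 pairs (r of 0.21 to 0.62, against -0.45 to 0.18 in 36 other pairs), so the numbers pair the samples. The fit with this block is given beside a result where it changed the call, and for some differences whose call it left unchanged. The alternatives were normexp correction (offset 50), quantile normalization, spike-in scaling (255 spots), the authors' values, filters on dim probes, other call rules and fits, and leaving out arrays.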

Additional observations from a re-analysis of the deposited data

How the results depend on the processing

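Of the 48 member differences called, 24 kept the call with the spike-ins, 20 lost it and 4 turned their sign. With normexp 29 kept the call, 16 lost it and 3 turned their sign. Called differences that turned their sign were thus few, and lost calls were many. With the spike-ins the turned differences were Ppp3ca (-0.21) and Ppp3cb probe 3 (-0.13) for soleus minus myotube, Ppp3r1 probe 3 (-0.38) for EDL minus myoblast and Ppp3cb probe 4 (-0.09) for soleus minus myoblast. Uncalled differences that turned and were then called were Ppp3r1 probe 3 (-1.05) for soleus minus myotube, Nfatc3 probe 1 (-1.25) for EDL minus myoblast, and for soleus minus myoblast Ppp3r1 probes 2 (-1.43) and 3 (-1.04) and Nfatc3 probes 1 (-1.51) and 2 (-1.53). Normexp correction turned Ppp3r1 probe 3 (-0.08) and Nfatc2 probes 2 (-0.01) and 3 (-0.12) for EDL minus myoblast, and the mean over probes of Nfatc2 gave 1.07 for soleus minus EDL where its probe 1 gave -0.01. A further 75 turns, 21 of them with the spike-ins and 13 with normexp, were of differences not called before or after. The cause was not tested. Scaling by the spike-ins shifts all probes alike. Normexp correction moved the median difference over all probes to -0.61 for myotube minus myoblast and 0.67 for soleus minus myotube. In the main fit these medians were 0.05 and 0.1.

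Counts of member probes that moved by over 1.5 times were those with no minimum difference (11 for myotube minus myoblast, 14 for EDL minus myotube, then 12 for soleus minus myotube and 8 for soleus minus EDL, against 5, 9, 7 and 4), with normexp (3 for soleus minus myotube, 2 for soleus minus EDL and 7 for EDL minus myoblast), with the spike-ins (2 for soleus minus EDL and 8 for EDL minus myoblast) and with only probes above background on all arrays (2 for soleus minus EDL). Leaving out arrays gave 5 to 7 for myotube minus myoblast, 9 to 10 for EDL minus myotube, 6 to 8 for soleus minus myotube, 3 to 5 for soleus minus EDL, 11 to 13 for EDL minus myoblast and 10 to 11 for soleus minus myoblast. The replicate block made 4 member differences called, given in the report (for Nfatc4 probe 2, myotube minus myoblast, 1.22), and changed no other call.

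Over all probes, the counts called for myotube minus myoblast, for EDL and for soleus minus myotube, for soleus minus EDL, and for EDL and soleus minus myoblast, in this order, were 10054, 13315, 12695, 2689, 16275 and 15714. With normexp they were 4383, 6372, 6127, 532, 8074 and 6650. With no minimum difference the first 4 were 17907, 20526, 20127 and 8588, and with only probes above background on all arrays, which tests fewer probes, 6506, 8477, 8038 and 1555, and 10406 for the last. The spike-ins gave 1337 for soleus minus EDL, and no filter gave 24476 for EDL minus myoblast. Probes at the level of the background, among them Nfatc2 probe 2 in myotubes, have only bounds there.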
